A study of Homo sapiens with 9 samples.

Results

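A set of 10 immediate early genes was followed in every library of the series (FOS, FOSB, JUN, JUNB, JUND, EGR1, IER2, IER3, MYC and DUSP1). They were taken by symbol from a table of 35876 gene symbols, and all 10 were present and passed the filter on low counts that left 11905 genes for testing. RNA was sequenced from HEK293 cells, a line made from human embryonic kidney cells with adenovirus DNA, in 3 groups of 3 libraries. The CC_Cas9 group carried Cas9, a DNA nuclease steered by a guide RNA, and is called Cas9 below. The CC_Cas9_Cre group carried Cas9 and the recombinase Cre, and the CC_Cas9_Flpo group carried Cas9 and the recombinase Flpo, so that Cas9 was shared by all 9 libraries. The title of the series describes a knockout system that is switched by a chemical and can be reversed, but the labels name no treatment, no time, no guide and no target gene. They also do not explain the prefix CC, say how the recombinases were delivered or say whether a line was 1 clone.

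Immediate early genes are switched on within minutes of a signal such as serum, a growth factor or stress, without the need for new protein. The signal runs through RAS, RAF, MEK and ERK kinases to factors that wait on the promoters, among them SRF with its ELK partners and CREB, and the transcripts decay fast. FOS and JUN proteins pair to form AP-1, EGR1 is a zinc finger activator, MYC drives growth and ribosome production, and DUSP1 is a phosphatase that switches MAP kinases off again. In adenovirus-transformed kidney cells kept in serum, several of these transcripts are present without further stimulus.

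The depth of the libraries differed widely and limits what follows. Totals ran from 993902 to 3761779 estimated counts in the Cas9 group and from 213907 to 1701730 in the Cre group. In the Flpo group they ran from 4989524 to 8833491, above every Cas9 and every Cre library. Depth and the Flpo group thus cannot be told apart, whether Flpo is compared with Cas9 or with Cre. In Cre replicate 2, the smallest library, 6 of the 10 genes had 3 counts or fewer. Flpo replicate 2 differed from Flpo replicates 1 and 3: ACTB held 0.320% of its counts against 3.71% and 3.51%, and olfactory receptor genes 0.897% against 0.0703% and 0.0557%. In the Cas9 and Cre libraries ACTB held 0.0668% to 0.523% and olfactory receptor genes 0.114% to 0.745%. Flpo replicates 1 and 3 lay outside both ranges. Flpo replicate 2 lay within that of ACTB and above that of the olfactory receptor genes. Fibroblast genes summed to 666 to 8223 CPM (counts scaled to the library total) in the Cre group, 281 to 1089 CPM in the Cas9 group and 189 to 218 CPM in the Flpo group. The extraction text mentions liver. Of 12 liver genes 11 failed the count filter, FGB and FGG had no count in any library, and the list summed to 6.76 to 121 CPM. Of 12 genes listed for HEK293, 6 passed the filter, VIM, CDH2 and NEFL among them, and NEFM, INA, PAX2, PAX8, LHX1 and HOXA9 did not.

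All of the genes are short and compact. In GENCODE 29 on GRCh38, JUN (chromosome 1, 58780788 to 58784327) and JUND (chromosome 19, 18279760 to 18281622) had a single exon, as did JUNB (chromosome 19, 12791496 to 12793315). FOS (chromosome 14, 75278774 to 75282230), FOSB (chromosome 19, 45467995 to 45475179) and DUSP1 (chromosome 5, 172768090 to 172771195) had 4 exons in their longest basic protein-coding transcript. EGR1 lay on chromosome 5 (138465490 to 138469315) and had 2 exons. IER2 lay on chromosome 19 (13150415 to 13154908), and IER3 on chromosome 6 (30743199 to 30744554). JUNB overlapped HOOK2 on the other strand, which had 52 to 360 counts a library, and IER2 and IER3 overlapped antisense genes. The use of strand in the counting is not given in the sources used here, so the values of JUNB, IER2 and IER3 are uncertain.

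The promoters of DUSP1 and FOSB, which stood at opposite ends in the Flpo group, and the known sites of JUN and EGR1 are shown because such sites are where signals reach these genes. RefSeq promoters on GRCh38.p14 were matched for 8 of the 10 genes, and the 250 bases before the start were searched on both strands. The searched words were the cAMP response element TGACGTCA and its core TGACGT, which lies within it, the AP-1 site TGACTCA, the JUN promoter variant TGACATCA, the E-box CACGTG and the CArG box of SRF. Capitals mark matches that lie whole within the printed stretch. The EGR1 stretch ends inside a further match to the core, which is left in lower case. The JUN site lies before the RefSeq start but within the GENCODE gene.
DUSP1 (chr5:172771196-172771445, minus strand): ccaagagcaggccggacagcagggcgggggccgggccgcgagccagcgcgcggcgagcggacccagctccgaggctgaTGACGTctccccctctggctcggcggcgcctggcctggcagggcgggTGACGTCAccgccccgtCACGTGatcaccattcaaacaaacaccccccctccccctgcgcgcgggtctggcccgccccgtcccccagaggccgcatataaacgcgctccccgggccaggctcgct
FOSB (chr19:45467746-45467994, plus strand): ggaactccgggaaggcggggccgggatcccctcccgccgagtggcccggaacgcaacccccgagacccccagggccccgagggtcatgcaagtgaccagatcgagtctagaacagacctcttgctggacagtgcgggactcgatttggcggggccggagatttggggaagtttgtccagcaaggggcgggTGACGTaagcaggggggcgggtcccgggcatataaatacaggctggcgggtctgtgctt
JUN site (chr1:58784096-58784125, minus strand): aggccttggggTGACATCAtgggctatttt
EGR1 CArG boxes (chr5:138465364-138465415, plus strand): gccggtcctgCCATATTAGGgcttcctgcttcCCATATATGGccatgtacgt

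The core TGACGT was found in 5 of the 8 promoters (FOS, FOSB, JUND, EGR1 and DUSP1), and 7.10% of 35116 RefSeq promoters held it. TGACGTCA was found in JUND and DUSP1, against 1.65% of all promoters, and the E-box in DUSP1 alone of the 8, against 6.34%. The JUN variant TGACATCA was found in JUN alone, against 2.38% of promoters. Of the 8 promoters EGR1 alone held CArG boxes, against 1.16% of promoters, and TGACTCA was found in none of the 8, against 4.20%. DUSP1 and FOSB both held the core TGACGT. A match describes the letters in this window and not the binding of a factor. Sites farther than 250 bases before the start were not searched, so a gene without a match can hold a site elsewhere.

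Without a recombinase, JUN was the most abundant of the genes per length. Levels per length are TMM-scaled CPM per kilobase of the longest basic protein-coding transcript, an approximation because effective lengths were not used. In the Cas9 group JUN stood at 86.2 ± 10.9 (SD, n = 3), followed by IER3 at 31.6 ± 6.42 and EGR1 at 27.9 ± 8.67. JUND, DUSP1 and IER2 followed at 23.7 ± 10.1, 22.5 ± 14.6 and 20.2 ± 5.50. FOSB at 12.4 ± 3.37 stood before FOS at 8.72 ± 2.50, and JUNB and MYC were lowest at 3.35 ± 2.53 and 1.63 ± 0.781. Neighbours in this order overlapped between libraries except JUN with IER3 and FOS with JUNB.

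In the Flpo group the order was another. DUSP1 led at 222 ± 168 CPM per kilobase (SD, n = 3), with IER3 next at 23.7 ± 7.67, IER2 at 18.7 ± 11.5 and MYC at 15.2 ± 12.6. JUND, EGR1, JUN, JUNB and FOS lay close together, from 14.9 ± 2.34 to 10.1 ± 5.26, and FOSB was lowest at 1.77 ± 0.805. Neighbours in this order overlapped except DUSP1 with IER3 and FOS with FOSB. In the Cre group JUN again had the highest mean, at 31.6 ± 30.9 CPM per kilobase, and MYC again the lowest, at 0.431 ± 0.578. Both SDs were about as large as the means, and the order differed between the Cre libraries. JUN was first in Cre replicate 1 alone. At the low counts of Cre replicate 2, FOS and DUSP1 lay above JUN, and IER3 lay above it in Cre replicate 3. MYC was lowest in Cre replicates 1 and 2, and JUND in Cre replicate 3.

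**Figure D1:**
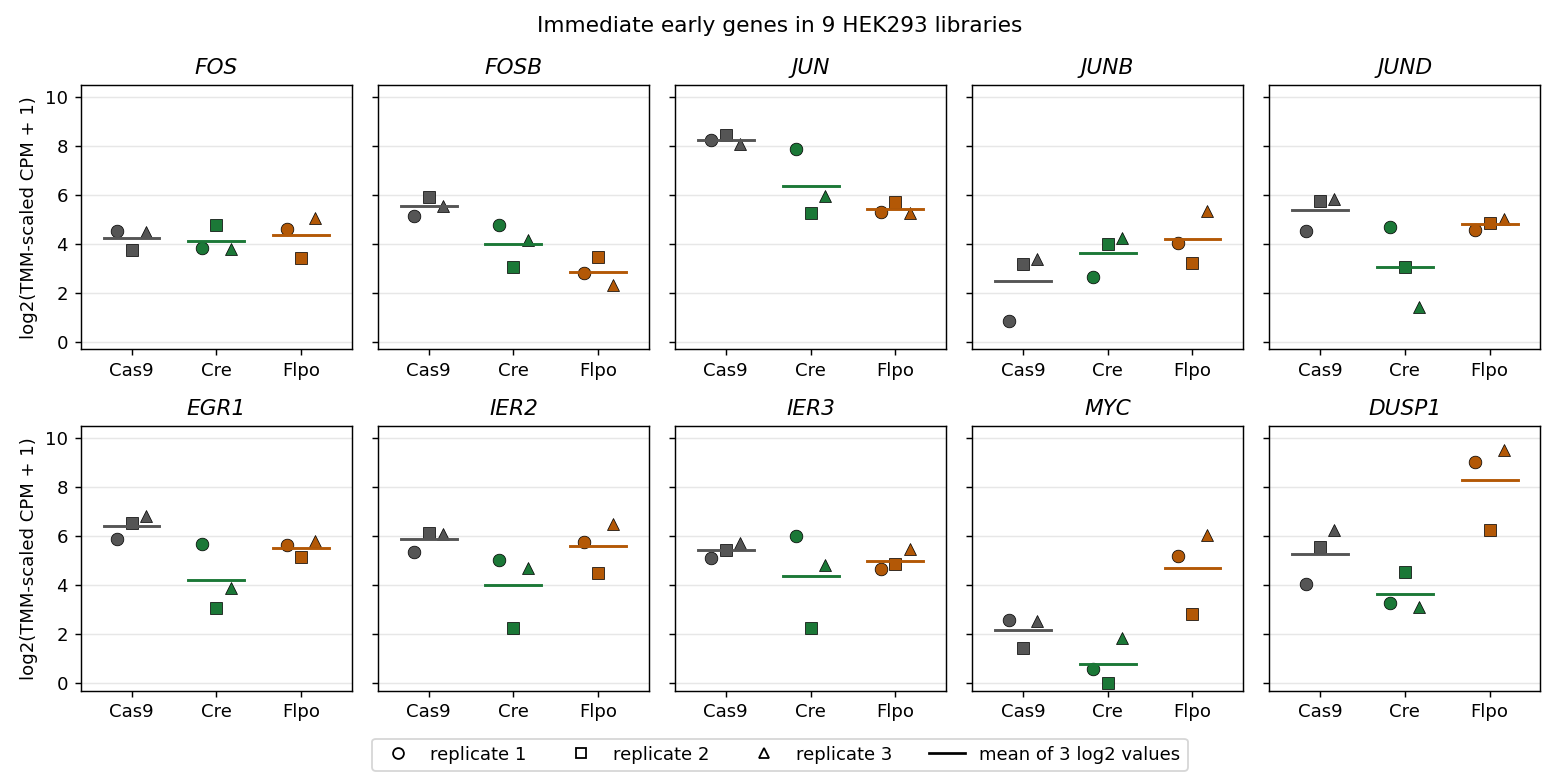
Level of each of the 10 genes in each library, as log2 of TMM-scaled CPM plus 1 (y axis), by group (x axis); symbols give the replicate number and lines the mean of the 3 log2 values. FOSB and JUN lie lower in all 3 Flpo libraries than in all 3 Cas9 libraries, MYC and DUSP1 lie higher, and Flpo replicate 2 lies nearest to the Cas9 group for both of the latter.

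Among the transcription factors of AP-1, JUN and FOSB were low in the Flpo group. JUN, the partner most often paired with FOS, had 301, 345 and 269 TMM-scaled CPM in Cas9 replicates 1, 2 and 3, and 38.3, 51.1 and 38.0 CPM in the Flpo replicates. Every Flpo library was below every Cas9 library, and the Flpo libraries lay close together. In the Cre replicates JUN had 238, 37.3 and 60.9 CPM, so replicate 1 lay near the Cas9 group and the others near the Flpo group. FOSB, a FOS relative, had 34.9, 60.2 and 45.4 CPM in the Cas9 replicates and 6.04, 9.97 and 3.99 CPM in the Flpo replicates, again without overlap. The Cre replicates had 26.3, 7.47 and 17.2 CPM, below all Cas9 libraries and overlapping the Flpo libraries at replicate 2. The transcript AC010970.1, the most abundant one in 6 of the 9 libraries, held 9.99%, 21.9% and 17.7% of counts in the Cas9 replicates and 17.2% in Cre replicate 1. It held 1.04% and 1.51% in Cre replicates 2 and 3, and 1.69%, 3.35% and 0.591% for Flpo. It was thus high in the 4 libraries with the highest JUN level, and its part in the values of JUN and FOSB was not tested.

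The other AP-1 genes did not separate the groups. FOS had 22.4, 12.6 and 21.4 CPM in the Cas9 replicates, 13.2, 26.1 and 12.9 CPM in the Cre replicates and 23.5, 9.71 and 32.2 CPM in the Flpo replicates, with full overlap. JUNB, often an antagonist of JUN, had 0.831, 8.03 and 9.42 CPM in the Cas9 replicates, where replicate 1 had 1 count, and 15.5, 8.43 and 40.1 CPM in the Flpo replicates. The Cre replicates of JUNB had 5.36, 14.9 and 18.0 CPM, and all 3 groups overlapped. JUND, the JUN protein least dependent on a stimulus, was even in the Flpo group at 23.1, 28.4 and 31.8 CPM, against 22.4, 53.4 and 56.5 CPM in the Cas9 replicates. It was low in Cre replicates 2 and 3, at 7.47 and 1.72 CPM with 2 counts each, and 24.8 CPM in Cre replicate 1.

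The signal terminator DUSP1 and the growth-promoting transcription factor MYC were high in the Flpo group. DUSP1 had 529, 76.7 and 739 CPM in Flpo replicates 1, 2 and 3, against 15.8, 45.9 and 74.8 CPM in the Cas9 replicates and 8.77, 22.4 and 7.72 CPM in the Cre replicates. Flpo replicate 2 lay only just above the highest Cas9 library, and without TMM scaling it lay below it, at 60.1 against 69.6 CPM. MYC (chromosome 8, 127735434 to 127741434) had 36.1, 6.13 and 65.9 CPM in the Flpo replicates and 4.99, 1.72 and 4.85 CPM in the Cas9 replicates. Without TMM scaling, Flpo replicate 2 at 4.81 CPM lay below the highest Cas9 library at 6.04 CPM for MYC too. In the Cre libraries MYC had 1, 0 and 3 counts, or 0.487, 0 and 2.57 CPM, at or below the floor of 3 counts, and in Cre replicate 2 that floor is 11.2 CPM. The exact 95% Poisson interval of its count of 0 reached 13.8 CPM. The same 2 Flpo libraries that were high in DUSP1 and MYC were high in ACTB and low in olfactory receptor genes. The part of either in the levels of DUSP1 and MYC was not tested. In these bulk samples fewer cells of a type and less RNA per cell cannot be told apart.

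EGR1, IER2 and IER3 had their highest group means in the Cas9 group. EGR1 had 58.2, 92.4 and 112 CPM in the Cas9 replicates, 50.7, 7.47 and 13.7 CPM in the Cre replicates and 48.7, 35.0 and 55.6 CPM in the Flpo replicates, so that all Cas9 libraries lay above all others. IER2, a small nuclear protein induced with FOS, had 40.7, 70.0 and 67.1 CPM in the Cas9 replicates and 32.2, 3.73 and 24.9 CPM in the Cre replicates, without overlap. Its Flpo values of 54.2, 21.5 and 88.8 CPM spanned both. IER3, a short-lived regulator of cell survival, had 34.1, 42.5 and 51.4 CPM in the Cas9 replicates, 63.8, 3.73 and 27.5 CPM in the Cre replicates and 24.2, 28.1 and 43.7 CPM in the Flpo replicates, and the groups overlapped.

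The Flpo group was compared with the Cas9 group to see what Flpo added. By edgeR's quasi-likelihood test 0 of the 10 genes passed an adjusted p of 0.05 over all 11905 genes, where 0.227% of all tested genes passed. At an unadjusted p under 0.05 there were 4 of the 10, beside 2378 of all 11905 tested genes. Those 4 were in opposite directions. FOSB stood 7.05-fold lower (log2 fold change −2.82, SE 0.59, edgeR adjusted p = 0.059) and JUN 7.18-fold lower (log2 −2.84, SE 0.65, edgeR adjusted p = 0.069). DUSP1 stood 9.76-fold higher (log2 3.29, SE 0.82, edgeR adjusted p = 0.0747) and MYC 9.24-fold higher (log2 3.21, SE 0.87, edgeR adjusted p = 0.0908). Of the others, EGR1 had a log2 fold change of −0.92 and JUNB of 1.74, and FOS, JUND, IER2 and IER3 lay between −0.68 and 0.22. The median over all tested genes was 0.05, and that of the 10 genes −0.27. The groups did not overlap in 5 of the 10 genes (FOSB, JUN and EGR1 lower, MYC and DUSP1 higher), where 25% of all tested genes did not overlap, 12.8% higher and 12.2% lower.

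The calls of those 4 genes varied with the setting. FOSB, MYC and DUSP1 each passed in 4 alternatives, of 17 for FOSB and DUSP1 and 16 for MYC, and JUN in 5 of 17. Over these alternatives the highest adjusted p was 0.308 for FOSB, JUN and DUSP1 and 0.562 for MYC. All 4 passed with DESeq2 (adjusted p from 9.05e-05 for FOSB to 0.0146 for MYC) and without the count filter (0.000378 for DUSP1 to 0.00409 for FOSB). With DESeq2 1090 of 14445 genes passed, and without the filter 1169 of 25386. They also passed without Flpo replicate 2, where 2685 of 12595 genes did, at adjusted p from 0.00347 for DUSP1 to 0.0151 for JUN. JUN alone passed without Cre replicate 1 (0.0463). Without Flpo replicate 2 DUSP1 had a log2 fold change of 3.77 and MYC of 3.69.

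**Figure D2:**
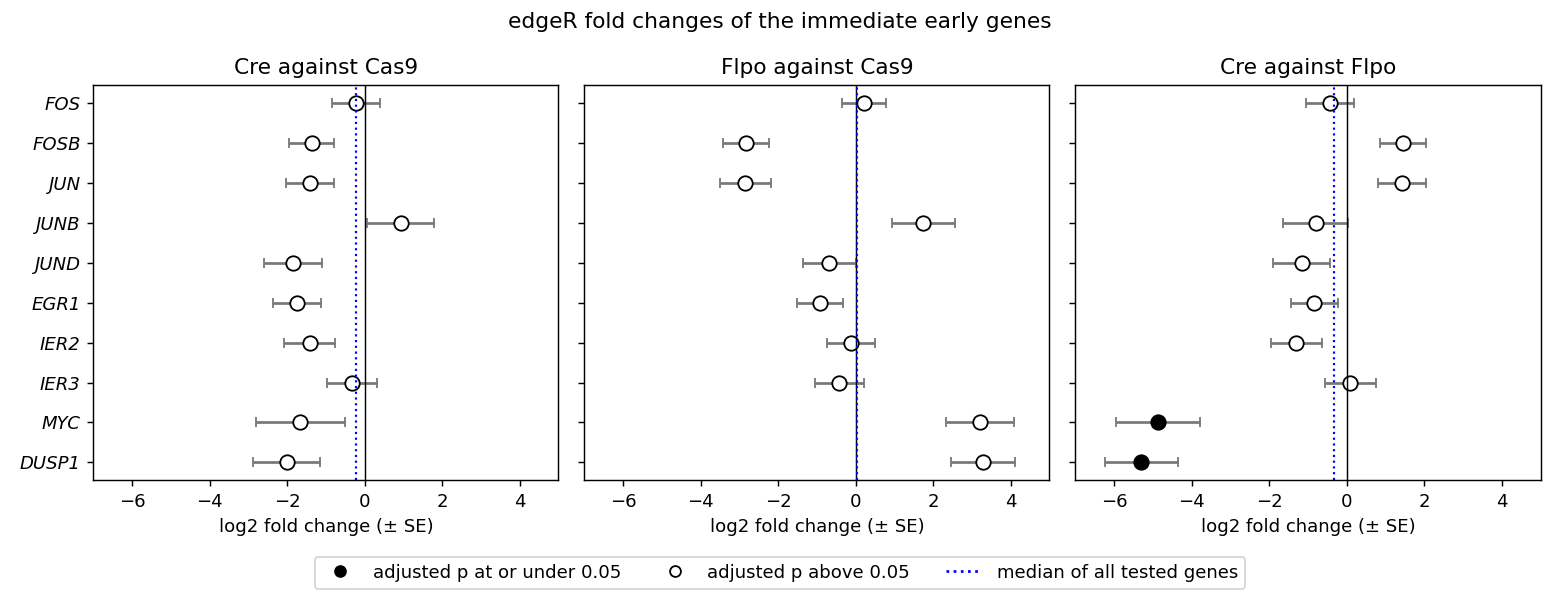
edgeR log2 fold change (x axis) of each gene in the 3 comparisons, with bars of 1 standard error; filled points have an adjusted p at or under 0.05 and the dotted line is the median of all tested genes. In Flpo against Cas9 the points of FOSB and JUN lie near −2.8 and those of MYC and DUSP1 above 3, and in Cre against Flpo MYC and DUSP1 alone are filled.

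The comparison of the Cre group with the Cas9 group asked the same of Cre. In edgeR 0 of the 10 genes passed, where 0% of all 11905 tested genes did so and 879 had an unadjusted p under 0.05. DESeq2 also called 0 of the 10, and 4 genes in all. By edgeR, FOSB, JUN, JUND, EGR1 and DUSP1 reached an unadjusted p under 0.05. Their log2 fold changes were −1.36, −1.41, −1.84, −1.75 and −2.01, with SEs of 0.58, 0.62, 0.75, 0.62 and 0.86 and edgeR adjusted p of 0.619 for all 5. IER2 and MYC stood at −1.42 and −1.66, IER3 and FOS at −0.32 and −0.21, and JUNB at 0.94. The median of the 10 genes was −1.41 and that of all tested genes −0.22. In 4 genes (FOSB, JUN, EGR1 and IER2) all Cre libraries lay below all Cas9 libraries. Of all tested genes, 9.83% did not overlap, and 6.37% did not overlap with the Cre group lower. For JUN this held only with TMM scaling. Without it, Cre replicate 1 had 287 CPM against 250 CPM in Cas9 replicate 3. Without Cre replicate 3, 0 of the 10 reached that unadjusted p, without Cre replicate 2 the number was 2, and without Cas9 replicate 2 or 3 it was 1.

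The Cre and Flpo groups were also set against each other, which tests whether their differences from Cas9 differed. DUSP1 and MYC passed, both lower in the Cre group: 2 of 10 genes, against 20.5% of all tested genes in either direction, 14.3% lower and 6.17% higher, so the share among the 10 was close to the background. Without TMM scaling the split of all called genes turned, to 2039 higher and 840 lower from 735 higher and 1705 lower, while DUSP1 and MYC stayed lower and passed. DUSP1 was 39.4-fold lower in the Cre group (log2 −5.30, SE 0.95, edgeR adjusted p = 0.0167), or −4.96 relative to the median of all tested genes of −0.34. By p it ranked 43 among all tested genes. MYC was lower by a fitted log2 of −4.86 (SE 1.09, edgeR adjusted p = 0.0182), or −4.52 relative to that median. As the Cre libraries together held 4 MYC counts against 646 in the Flpo libraries, the pooled ratio of 35.2 had an exact 95% interval of 13.7 to 130, for counting error only.

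Both genes stayed lower in the Cre group with each single library left out, but not every such fit called them. DUSP1 and MYC passed no longer without Cre replicate 2 (log2 −5.72 and −4.67, edgeR adjusted p = 0.053 and 0.0539) and without Cre replicate 3 (log2 −5.03 and −6.25, edgeR adjusted p = 0.0949 for both). The same held without Flpo replicate 1 (log2 −5.18 and −4.91, edgeR adjusted p = 0.0685 and 0.077), and for MYC without Flpo replicate 3 (log2 −4.11, edgeR adjusted p = 0.0561). When depth (log2 of the total count) entered the model, the log2 fold changes were −4.34 and −3.30, with edgeR adjusted p of 0.799 and 0.818. In the fits without Cre replicate 2, Cre replicate 3 or Flpo replicate 1 and in the depth fit 0 of all tested genes passed in this comparison, so every other call of Cre against Flpo given below was lost there too. Without Cre replicate 1, JUND (log2 −3.06) and EGR1 (log2 −2.02) passed as well. Without Flpo replicate 2, IER2 (log2 −1.64) and FOSB (log2 1.89) did. The number of all tested genes called differed widely between fits with a single library left out. These added calls were not set against the share called in the same fit, so they do not set the genes apart.

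FOSB and JUN stood the other way, above the Flpo level in the Cre group by log2 1.46 (SE 0.59, edgeR adjusted p = 0.0868) and 1.43 (SE 0.62, edgeR adjusted p = 0.106). Without TMM scaling, which moved the median of all tested genes from −0.34 to 0.44, FOSB and JUN passed at log2 2.21 and 2.17, and FOSB passed with DESeq2 (adjusted p = 0.0466). The remaining 6 genes ran from −1.30 for IER2 to 0.10 for IER3, and none passed. CPM values of the groups did not overlap in 2 of the 10 genes, MYC and DUSP1, against 43.2% of all tested genes, 27.9% lower in the Cre group. For MYC the interval of the count of 0 in Cre replicate 2, up to 13.8 CPM, covered the value of Flpo replicate 2. The 3 comparisons share groups, so their values are given side by side and no agreement between them is read.

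Shares within a library need no scaling between libraries, and they were chosen after the values were seen. JUN made up 92.8%, 84.9% and 80.3% of the JUN, JUNB and JUND counts in Cas9 replicates 1, 2 and 3 and 49.8%, 58.1% and 34.6% in the Flpo replicates. The Wilson 95% intervals of the highest Flpo library (52.9% to 63.2%) and the lowest Cas9 library (77.9% to 82.5%) did not meet. The Cre replicates had 88.7%, 62.5% and 75.5%, of 550, 16 and 94 counts. JUND took 28.9% to 32.3% in the Flpo libraries and 2.13% to 16.9% in the other 6. In Cre replicate 2 the JUND share rested on 2 of 16 counts, and its Wilson 95% interval (3.50% to 36.0%) covered all Flpo values. JUNB took 36.5% in Flpo replicate 3, more than JUN in that library. These shares are not corrected for length. Per kilobase JUND lay above JUN in Flpo replicates 1, 2 and 3, at 12.4, 15.2 and 17.1 against 10.8, 14.4 and 10.7 CPM.

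FOSB made up 60.9%, 82.7% and 67.9% of FOS and FOSB counts in the Cas9 replicates and 20.5%, 50.6% and 11.0% in the Flpo replicates. By counts, FOS was thus the larger of the pair in Flpo replicates 1 and 3 alone of those 6. In the Cre replicates the FOSB share was 66.7%, 22.2% and 57.1%, of 81, 9 and 35 counts. Counts are not corrected for length, and the FOSB transcript is longer (3.775 against 2.158 kilobases). Per kilobase FOS also lay above FOSB in Cas9 replicate 1 (10.4 against 9.25 CPM) and Flpo replicate 2 (4.50 against 2.64 CPM). There were 13.8, 1.5 and 19.5 DUSP1 counts per JUN count in the Flpo replicates. The other 6 libraries had between 0.0369 (Cre replicate 1) and 0.600 (Cre replicate 2) DUSP1 counts per JUN count. By counts, DUSP1 thus lay above JUN in all 3 Flpo libraries and in no other library. Per kilobase, DUSP1 also lay above JUN at the low counts of Cre replicate 2. The intervals cover counting error alone, because no molecular identifiers are named in the labels and reads can be copies of one another.

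**Figure D3:**
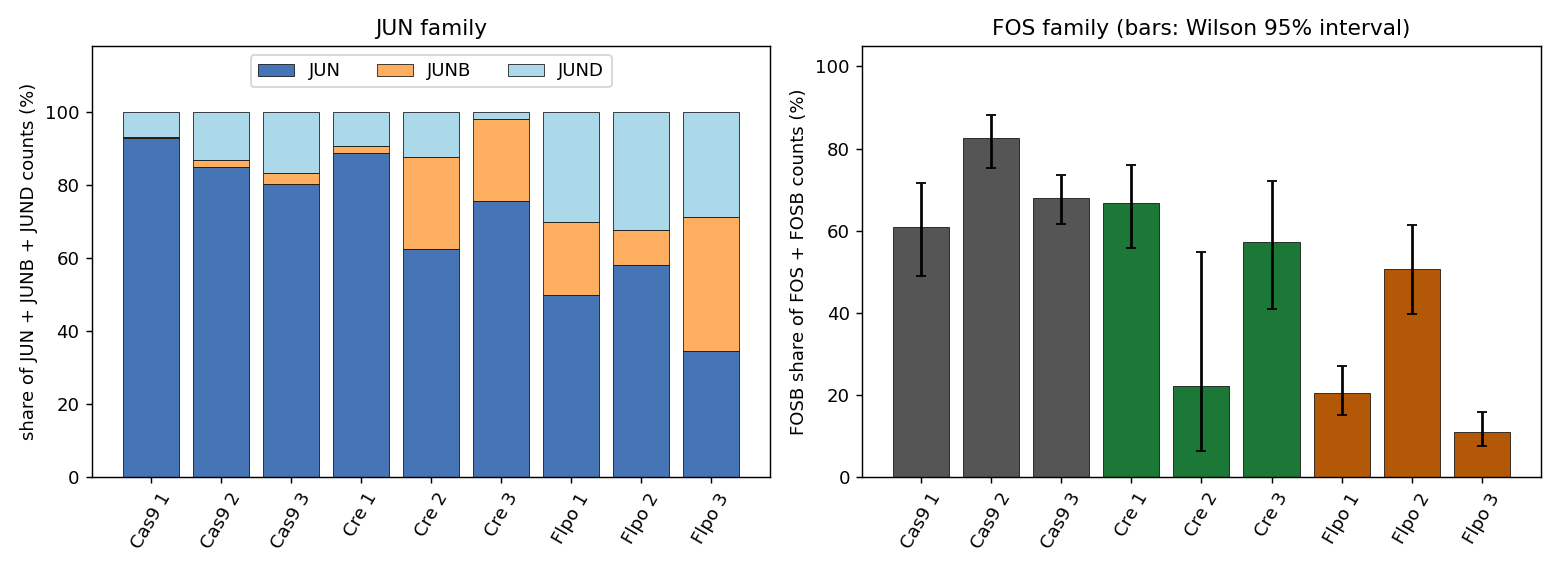
Left, share of JUN, JUNB and JUND in their summed counts (y axis, percent) in each library (x axis); right, FOSB as a share of FOS and FOSB counts, with Wilson 95% intervals for counting error. The JUN share is above 80% in the 3 Cas9 libraries and between 34.6% and 58.1% in the 3 Flpo libraries, and the FOSB share of Cre replicate 2 rests on 9 counts.

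Across the 9 libraries the pattern of JUN was most like that of FOSB among 11904 other tested genes. The root mean square difference of their log2 CPM, each centred on its own mean, was 0.43, and seen from FOSB only PALM was nearer, at 0.42. No other pair of the 10 genes was that near. DUSP1 and MYC were each other's nearest member at 1.13, yet MYC ranked 646 among the genes nearest to DUSP1, and DUSP1 ranked 389 for MYC. These lists were led by RHEB for DUSP1 (0.37) and SLC35F6 for MYC (0.57). FOS was nearest to LMNA (0.22) and JUNB to ERICH5 (0.47), while FOS and JUNB differed by 1.21. JUND was nearest to LZTR1 (0.36), EGR1 to HSPB1 (0.25), IER2 to FAM172A (0.20) and IER3 to MYO3A (0.21). All these values share the depth differences of the libraries.

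Further immediate early genes were read from a list of 40. Of these 27 passed the count filter, and edgeR placed 11 of the 27 past the threshold, all lower in the Cre group, beside 14.3% of all tested genes. The median log2 fold change of the 27 was −1.91, against −0.34 for all tested genes. ID3, an inhibitor of differentiation factors, had 491, 55.5 and 421 CPM in the Flpo replicates and 8.28, 14.9 and 16.3 CPM in the Cre replicates (log2 −4.66, SE 1.05, edgeR adjusted p = 0.0185). CTGF, a secreted matrix protein now named CCN2, had 184, 39.9 and 325 CPM against 5.85, 29.9 and 13.7 CPM (log2 −3.68, SE 0.80, edgeR adjusted p = 0.0174). The stress gene GADD45B and the growth inhibitor BTG2 fell by 3.50 and 3.21 on the log2 scale (edgeR adjusted p = 0.032 and 0.0353). The remaining 7 calls were CYR61 (now CCN1), ID1, ID2, KLF10, IER5, MCL1 and PPP1R15A. The other 16 genes did not pass, and MAFF (log2 1.21), NR4A1 (1.09), SGK1 (0.73) and PER1 (0.54) had fold changes above 0.

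The count of 11 varied with the libraries. It was 0 of 31 without Cre replicate 2 or Cre replicate 3, 0 of 28 without Flpo replicate 1, 1 of 27 without Flpo replicate 3 and 3 of 31 without Cas9 replicate 2. Without TMM scaling 4 of 27 passed, 3 lower and 1 higher. With depth in the model 0 of 27 passed and the median was 0.32. Against the Cas9 group, edgeR placed none of the 27 past the threshold for either recombinase, with medians of −1.39 for Cre and 0.46 for Flpo. EGR2, EGR3, EGR4 and FOSL1, classical members of the class, failed the count filter.

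**Figure D4:**
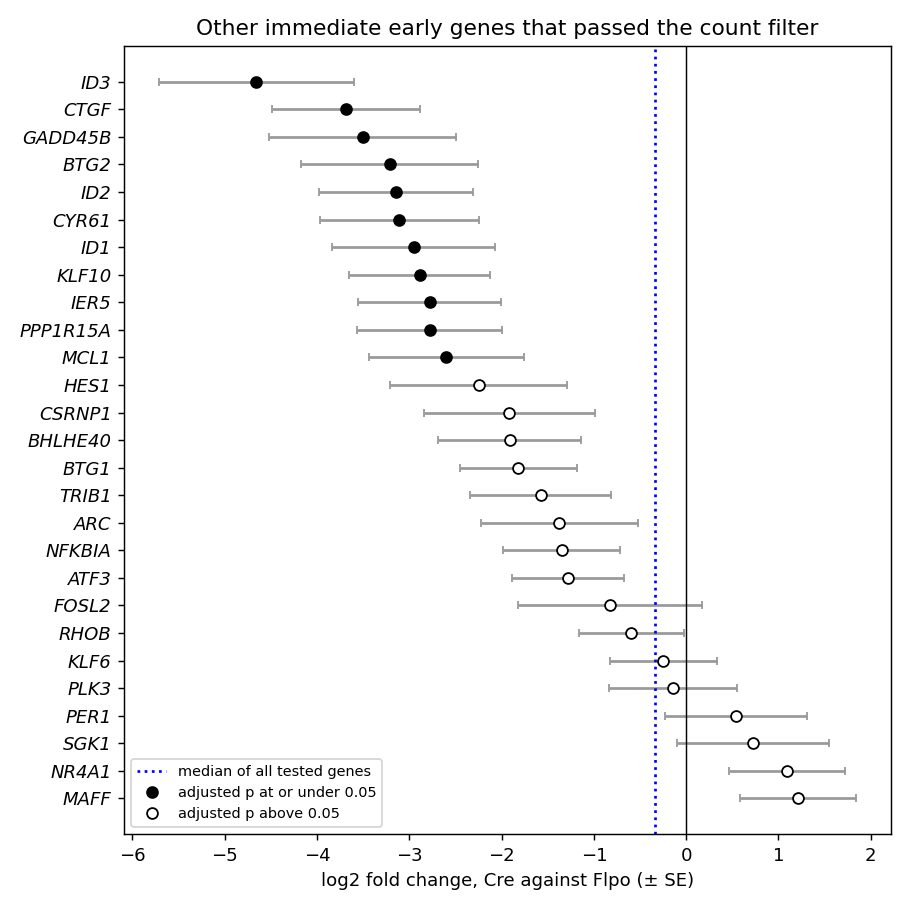
edgeR log2 fold change of Cre against Flpo (x axis) with bars of 1 standard error for the 27 other immediate early genes that passed the count filter (y axis); filled points have an adjusted p at or under 0.05. All 11 filled points lie between −4.66 and −2.60, left of the dotted median of all tested genes at −0.34.

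The kinases and factors that carry the signal to these genes were listed too. All 28 listed genes from EGFR to SRF passed the count filter. In edgeR, 2 of the 28 passed in Cre against Flpo, both lower in the Cre group, beside 14.3% of all tested genes lower and 20.5% in either direction. Against the Cas9 group 0 passed for either recombinase. MAP2K1, which encodes the ERK kinase MEK1, had 39.3, 10.2 and 52.0 CPM in the Flpo replicates and 2.92, 0 and 3.43 CPM in the Cre replicates (log2 −3.63, SE 0.87, edgeR adjusted p = 0.0201). These CPM values did not overlap, but the Cre replicates held only 6, 0 and 4 counts. In Cre replicate 2 the floor of 3 counts is 11.2 CPM, above the value of Flpo replicate 2, so these 2 libraries cannot be ordered. NRAS had 16.1 to 210 CPM in the Flpo libraries and 9.74 to 18.7 CPM in the Cre libraries, with overlap (log2 −2.62, SE 0.81, edgeR adjusted p = 0.0399). SRF itself had 25.9, 26.8 and 25.7 CPM in the Flpo replicates, 5.82, 43.0 and 56.8 CPM in the Cas9 replicates and 10.7, 0 and 0.858 CPM in the Cre replicates, and did not pass in any of the 3 comparisons. The median of the list in Cre against Flpo was −0.36, against −0.34 for all tested genes. Without TMM scaling 6 of the 28 passed, 5 higher and 1 lower, with DESeq2 6 passed, 2 higher and 4 lower, and without Flpo replicate 3 the count was 0. The most abundant genes of the list, RPS6KA5 and BRAF, had log2 fold changes of 0.72 and 1.35 in Cre against Cas9 and −0.72 and −0.37 in Flpo against Cas9, and did not pass.

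Among the partners of AP-1 and MYC, edgeR called 2 of 7 and 1 of 9 tested genes in Cre against Flpo, beside 20.5% of all tested genes. JDP2, a repressor that pairs with JUN, was higher in the Cre group (log2 3.22, SE 0.74, edgeR adjusted p = 0.0189), with 87.2, 205 and 188 CPM against 11.2, 33.5 and 6.71 CPM. MAFG was lower by log2 −3.83 (SE 1.23, edgeR adjusted p = 0.0438), with 1, 0 and 3 counts in the Cre libraries, so that its fitted fold change is no bound. Of 9 tested MYC partners and relatives, MNT, a repressor that competes with MYC for MAX, was called, higher in the Cre group by log2 1.64 (SE 0.54, edgeR adjusted p = 0.0482). MNT had 193, 235 and 302 CPM in the Cre replicates and 64.7, 127 and 43.1 CPM in the Flpo replicates. MAX had 7.31, 0 and 2.57 CPM in the Cre replicates and 20.2, 9.20 and 20.8 CPM in the Flpo replicates and did not pass. Without Flpo replicate 3 neither list held a call, and without Cas9 replicate 2 or 3 the MYC partners held none. Against the Cas9 group 0 genes of either list passed in edgeR. There JDP2 and ATF3 had log2 fold changes of 1.31 and −0.98 for Cre and −1.91 and 0.30 for Flpo, and MLX and MLXIP stood at 0.08 and −0.67 for Cre and −0.54 and −0.37 for Flpo.

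Among 10 tested feedback regulators, edgeR called 1 in Cre against Flpo, beside 20.5% of all tested genes. This was ZFP36L2, which marks AU-rich transcripts for decay, with a log2 fold change of −2.25 (SE 0.69, edgeR adjusted p = 0.0387). That call was lost without Flpo replicate 3 or Cas9 replicate 2. It had 26.4, 15.6 and 57.8 CPM in the Flpo replicates and 9.26, 3.73 and 6.01 CPM in the Cre replicates. The ERK phosphatases DUSP4, DUSP5 and DUSP6 failed the count filter, so that DUSP1 was not compared with them. SPRED1 and COP1, the most abundant of the list, had log2 fold changes of 0.61 and 0.65 in Cre against Cas9 and −0.24 and 0.36 in Flpo against Cas9, and 0 of the 10 passed in either.

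Target genes of MYC were read too, and whether their levels followed that of MYC was not tested. Of 11 tested targets edgeR called 5 in Cre against Flpo, all lower in the Cre group, beside 14.3% of all tested genes, with a median log2 fold change of −1.59. LDHA, the last enzyme of anaerobic glycolysis, fell by 4.18 on the log2 scale (SE 0.95, edgeR adjusted p = 0.0185). NPM1, a nucleolar chaperone, fell by 3.36 and HSPD1, a mitochondrial chaperone, fell by 3.12. ODC1, the first enzyme of polyamine synthesis, fell by 2.87, and the cell cycle kinase CDK4 fell by 2.75. The targets CAD, NCL, FBL, EIF4E, SRM and NOP56 did not pass. Of these, NOP56 alone had a higher mean in the Cre group, at 339 against 271 CPM in the Flpo group. With Flpo replicate 3 left out 1 of the 11 passed. Against the Cas9 group 0 of the 11 passed in edgeR, with medians of −0.85 for Cre and 1.32 for Flpo. LDHA and NPM1 stood at −1.49 and −1.12 for Cre and 2.69 and 2.25 for Flpo.

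Markers of other cell types were read beside these genes. Of 5 tested fibroblast genes, COL1A1, COL1A2 and COL3A1 were higher in the Cre group against Flpo by log2 3.19, 3.47 and 3.04 (edgeR adjusted p = 0.0243, 0.0287 and 0.021), calls that were lost without Flpo replicate 3 too. Against Cas9 they stood at 2.45, 2.67 and 2.18 for Cre and −0.74, −0.80 and −0.86 for Flpo, with 0 calls. COL1A2 had 3927 CPM in Cre replicate 2 and 286 and 822 CPM in Cre replicates 1 and 3, and without replicate 2 the median of the list in Cre against Cas9 went from 2.54 to 0.89. Neither the 6 tested HEK293 genes, led by VIM and CDH2, nor the liver gene TF nor the 2 tested blood and endothelial genes, LYZ and PECAM1, passed in any of the 3 comparisons. In Cre against Flpo VIM stood at 0.23, CDH2 at −0.66, TF at 0.30, LYZ at 1.37 and PECAM1 at 1.27. The part of such cells or transcripts in the values of the immediate early genes was not tested.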

How the data were processed

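The authors deposited 1 table that holds, for each gene symbol, the estimated counts of 9 libraries, not normalized. Salmon 0.14.1 and the build hg38 are named in the submitters' processing notes; the annotation, filters and strand setting are not given in the sources used here. The deposited expected counts were rounded to whole numbers. edgeR 4.0.16 in R 4.3.3 was fitted to all 9 libraries at once by its quasi-likelihood test, with TMM scaling, no covariates and its default filter (minimum count 10), and p-values were adjusted by Benjamini-Hochberg over 11905 genes at a threshold of 0.05. The standard error is the absolute log2 fold change over the square root of F. CPM values use TMM-scaled totals except the sums over lists. Gene positions and lengths are those of GENCODE 29. The code was tested on simulated data with a smaller spread between libraries than these data, so that test does not give its error rates here.

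The genes and lists were chosen with earlier results of these data known. All 10 genes are named. From each other list the rule named called genes, up to 4 in each direction by fold change, or, with no call, the 2 with the highest mean CPM. Further called genes, SRF, MAX, genes that failed the filter and the within-library shares were added after their values were seen. For each of the 10, the tested gene with the most similar pattern was named. Alternatives were DESeq2 1.42.0, other scaling and filters, a depth covariate, a replicate block and leaving out libraries. Nothing in the labels says that replicates were separate cultures, so p-values measure the spread between these samples, which may be technical.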

Additional observations from a re-analysis of the deposited data

Results flagged for a closer look

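DUSP1 and MYC were singled out because the effect of Cre and the effect of Flpo, each against Cas9, differed by edgeR's test of that difference. For DUSP1 the Cre effect minus the Flpo effect was −5.30 on the log2 scale, with all 3 Cre libraries below all 3 Flpo libraries. For MYC it was −4.86, again without overlap, and the Cre libraries held 4 MYC counts in all. Of all tested genes 43.2% did not overlap in this comparison, 27.9% with the Cre group lower. The Poisson interval of the MYC count of 0 in Cre replicate 2 reached 13.8 CPM, above Flpo replicate 2 at 6.13 CPM. With depth in the model neither gene passed (edgeR adjusted p = 0.799 for DUSP1 and 0.818 for MYC).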

How the results depend on the processing

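Over the alternatives, the direction of DUSP1, MYC, FOSB and JUN did not turn in any comparison. Of the 10 genes, Flpo against Cas9 called 0 as reported, then 4 with DESeq2, 4 without the count filter, 4 with replicate 2 of both the Cre and the Flpo group left out (chosen after seeing the data), and 0 to 4 with single libraries left out. Cre against Flpo called 2, then 4 without TMM, 1 at a minimum count of 50 (7 genes tested), 0 with the depth covariate, 4 with both libraries out and 0 to 4 with single libraries out. Over all genes, Cre against Cas9 called 0, then 4 with DESeq2 and 51 without the filter. Flpo against Cas9 called 27, then 1090 with DESeq2, 12 without TMM, 1169 without the filter, 2 at a minimum count of 50, 0 with the Cre group left out of the fit (2807 unadjusted), 0 with the depth covariate (1791 unadjusted), 2966 with both libraries out and 0 to 2685 with single libraries out (most without Flpo replicate 2). Cre against Flpo called 2440, then 4076 with DESeq2, 1622 at a minimum count of 50, 0 with the depth covariate (732 unadjusted), 5141 with both libraries out and 0 to 5559 with single libraries out. The cause of these changes was not tested.

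With the replicate number as a block, 0, 6 and 1568 genes and 0, 0 and 2 of the 10 were called for Cre and for Flpo (each against Cas9) and for Cre against Flpo, and IER3 stood at −0.11 in the last. Samples of the same number had mean correlations of −0.33, −0.09 and 0.12, and 0, 1 and 2 of 3 correlated best with their own number. These values were centred on groups of 3 libraries, so they cannot show or exclude that samples of the same number were paired.

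Some log2 fold changes that did not pass changed sign. Without TMM, FOS stood at 0.025 in Cre against Cas9, −0.35 in Flpo against Cas9 and 0.37 in Cre against Flpo. With the depth covariate, IER3 stood at 0.28 in Cre against Cas9, and JUNB, JUND, EGR1 and IER2 at 0.059, 0.42, 1.26 and 1.06 in Cre against Flpo. At a minimum count of 50, IER2 stood at 0.052 in Flpo against Cas9 and IER3 at −0.12 in Cre against Flpo. With both libraries out, IER3 stood at 0.11 in Cre against Cas9 and IER2 at 0.25 in Flpo against Cas9. With single libraries out, IER3 ran from −1.26 to 0.11 in Cre against Cas9, FOS from −0.16 to 0.55 and IER2 from −0.63 to 0.25 in Flpo against Cas9, and JUNB from −1.33 to 0.0069 and IER3 from −0.83 to 0.54 in Cre against Flpo.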
